A study of Danio rerio with 2 samples.

Results

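A set of 5 genes of the Bcl-2 family, the proteins that decide whether mitochondria release their death signals, were followed in whole gnl2 mutant and wild-type zebrafish embryos. They were chosen by name: baxa (older name bax), bcl2l1 (bcl2l), mcl1a, mcl1b and bcl2l10 (mcl1l). They stand among 16296 genes or transcripts tested. They were carried by 10 of the 21495 gene probes of the array, and all 10 were among the 19284 probes that passed the filters. The names written in the selection rule matched 5 probes of 3 genes directly, and the other probes were found through RefSeq synonyms. The mutant embryos were homozygous for the bw41c allele of gnl2, a gene for a nucleolar GTPase with a role in building the large ribosomal subunit. The wild-type embryos were of the TL strain, and the labels do not say that they were siblings of the mutants. All embryos were 22 hours old after fertilization, and each RNA extract came from 40 whole embryos. Each of 2 arrays received both kinds of RNA at once. The mutant RNA carried the red dye Cy5 on array 1 and the green dye Cy3 on array 2.

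Bcl-2 family proteins share short homology stretches and bind one another at the outer mitochondrial membrane. In vertebrates, Bax forms pores in that membrane, through which cytochrome c leaves the mitochondrion and sets off the Apaf1 and caspase-9 cascade. Bcl-xL (the product of bcl2l1), Mcl-1 and Bcl2l10 hold Bax and its activators in check, and small BH3-only proteins such as Bad, Puma and Noxa tip the balance towards death. In mammals the Bax gene is a transcriptional target of p53, a factor that is activated when ribosome assembly is disturbed. The array measures RNA, so it shows nothing of where these proteins are, whether they are activated, or how fast they turn over. In RNA from whole embryos, fewer cells of a type and less RNA per cell cannot be told apart.

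Between 92.7% and 96.4% of gene probes were well above background in each genotype and array. The SD of the log2 ratio over all tested probes was 0.27 on array 1 and 0.22 on array 2. Outlier flags marked 665 gene probes on array 1 and 93 on array 2. Ratios of the arrays correlated weakly and negatively across probes once both were expressed as mutant over wild type (Pearson r = -0.15, across 19284 probes that are not independent replicates). Of 16 marker genes for muscle, blood, nervous system, notochord, epidermis, vessels, hatching gland and myeloid cells, 13 were tested. The notochord gene col2a1a, the vessel gene fli1a and the myeloid gene mpx were not. All 13 were well above background in both genotypes on both arrays, as were 18667 of the 19284 tested probes. The filter already required this of the mutant or of wild type, so it is no independent check. Both array titles carry the same number, so whether the arrays hold separate extracts is not settled, and their spread may be technical.

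The pro-death gene baxa was the only member at least 2-fold different between the genotypes on both arrays. Its single probe (A_15_P100716) had a normalized signal of 7546 in mutant RNA against 3587 in wild-type RNA on array 1. On array 2 the signals were 4530 in mutant RNA and 1103 in wild-type RNA. The mutant signal was the higher one on each array. The mutant level was 2.10 times the wild-type level on array 1 and 4.11 times on array 2. In log2 units these ratios are 1.07 and 2.04, and they averaged 1.56 ± 0.68 (SD, n = 2 arrays), or 2.94-fold.

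Before any dye normalization the direction was the same. The mean spot signal was 11700 for mutant and 2355 for wild type on array 1, over local backgrounds of 76 and 49. On array 2 it was 3452 for mutant and 1501 for wild type, over backgrounds of 52 and 77. These raw signals still contain the stronger red channel of both arrays, which held the mutant RNA on array 1 and the wild-type RNA on array 2. The spots were neither saturated nor marked as outliers. The larger ratio came from the array on which the mutant RNA was in the weaker, green channel. The mean of the red over green ratios of the arrays was -0.48 on the log2 scale for baxa, and dye, slide and extract cannot be told apart with 2 arrays.

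**Figure D1:**
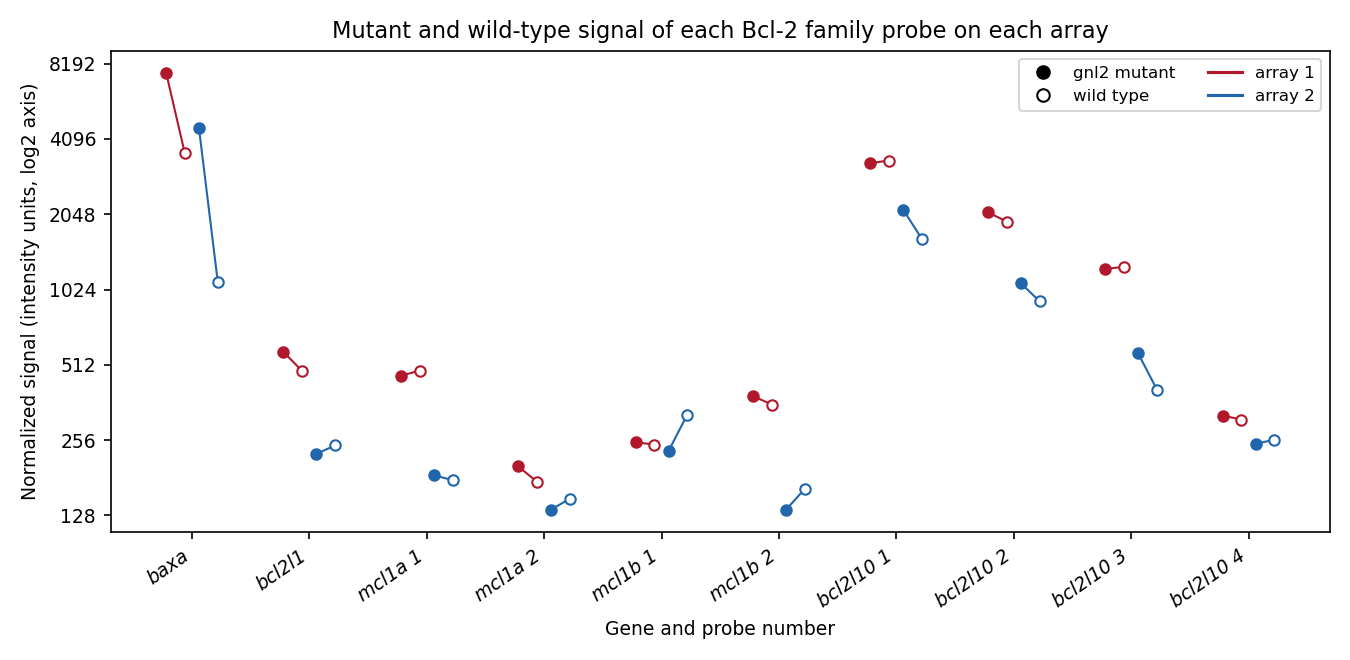
Normalized signal (intensity units, log2 axis) of each Bcl-2 family probe, with filled points for gnl2 mutant RNA and open points for wild-type RNA, joined within each array. The baxa signal was 7546 in mutant and 3587 in wild-type RNA on array 1, and 4530 and 1103 on array 2, whereas the paired points of the other probes lie close together; levels of different probes are not comparable.

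Among all tested probes, baxa had the 13th highest mean ratio of 19284. It ranked 133rd on array 1 and 11th on array 2. It was one of 24 probes at least 2-fold higher in the mutant on both arrays, which is 0.124% of the probes tested, and 1 of the 10 Bcl-2 family probes met that rule. None of the 10 was at least 2-fold lower on both arrays (0.00519% of all probes). In limma, the linear model test fitted over all probes, baxa had an unadjusted p of 0.00691 and an adjusted p of 1.00. No probe of the array was called at an adjusted p under 0.05 (0 of 19284, 0%), against 632 probes (3.28%) at an unadjusted p under 0.05. The exact sign-flip permutation test over the arrays gave p = 0.5 for baxa (two-sided), the smallest value that 2 arrays allow. The scanner software's own error model, which treats each array alone and leaves out the spread between arrays, gave baxa a p of 3.48e-09 on array 1 and of 1.11e-20 on array 2. By that model, 98 probes (0.508%) were higher in the mutant at a p under 0.01 on both arrays, with baxa among them and without the 9 other member probes.

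The limma call of baxa depended on how the arrays were normalized. When each array was centred on its median in place of intensity-dependent loess, the mean ratio was 1.60 with an adjusted p of 1.09e-05, and 38 probes of the array were called. Under the other 6 alternatives tested on both arrays the ratio lay between 1.56 and 1.58, with an adjusted p of 1.00. Of these, the changes to both filters and Aquantile scaling could not move it, since they leave each probe's ratio as it is. Only a changed background offset and Agilent's own processing, which the deposited value table repeats, could do so.

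The pro-survival genes had small ratios, and most of their probes pointed in opposite directions on the arrays. Of their 9 probes, 1 was higher in the mutant on both arrays, 0 were lower on both and 8 were split, against 21.4%, 20.0% and 58.6% of all probes tested. In the main setting all 9 had a mean log2 ratio within 0.25 of 0, as did 91.8% of all probes. This closeness to 0 is thus the usual state of the array and is not particular to them. The first mcl1b probe passed that limit with a background offset of 0 (-0.29) and with Agilent's processed signals (-0.30). With median centring it had -0.28, and the third bcl2l10 probe had 0.27. The median mean ratio of the 9 probes was 0.03 in the main setting, beside 0.002 for all tested probes. None of the 9 had an unadjusted limma p under 0.05, against 3.28% of all probes, and the adjusted p was 1.00 for each.

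The gene bcl2l1 encodes the counterpart of Bcl-xL, which binds Bax at the mitochondrion. Its probe (A_15_P105202) had a signal of 577 in mutant and 483 in wild-type RNA on array 1, and 226 in mutant and 244 in wild-type RNA on array 2. The higher signal was thus that of the mutant on array 1 and that of wild type on array 2. The mean log2 ratio was 0.07 ± 0.26 (SD, n = 2), with an unadjusted p of 0.610.

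Mcl-1, a short-lived guardian of the same membrane, is encoded in zebrafish by mcl1a and mcl1b. The brighter mcl1a probe (A_15_P105053) had 463 in mutant and 486 in wild-type RNA on array 1, and 185 and 177 on array 2. The dimmer one (A_15_P105471) had 201 in mutant and 174 in wild-type RNA on array 1, and 135 and 149 on array 2. Each probe pointed in opposite directions on the arrays. The probes are annotated to the same transcript. Their mean log2 ratios were -0.003 ± 0.10, which turned to 0.063 with median centring, and 0.03 ± 0.25.

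The lowest mean ratios of the family belonged to mcl1b. Its first probe (A_15_P120517) had 251 in mutant and 246 in wild-type RNA on array 1, and 232 and 324 on array 2. Its second probe (A_15_P107324) had 384 in mutant and 355 in wild-type RNA on array 1, and 135 and 163 on array 2. Both probes were thus a little higher in the mutant on array 1 and lower in the mutant on array 2. The log2 ratios on array 2 were -0.48 and -0.28, against 0.03 and 0.11 on array 1. Their means were -0.23 ± 0.36 and -0.08 ± 0.28 (SD, n = 2 each), and the single-array error model gave the first probe a p of 8.43e-04 on array 2 and of 0.915 on array 1. A further probe whose file annotation names a partial Mcl1b transcript, but which carries no gene symbol and so is no member, had 0.02 on each array.

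Bcl2l10, known in zebrafish as Nrz and in birds as NR-13, is a survival protein that acts at the endoplasmic reticulum and mitochondria. Its gene was measured by 4 probes. The brightest (A_15_P102412) had 3282 in mutant and 3359 in wild-type RNA on array 1, and 2133 and 1626 on array 2. The second (A_15_P115033) had 2088 in mutant and 1914 in wild-type RNA on array 1, and 1087 and 920 on array 2, and was the only pro-survival probe higher in the mutant on both arrays. The third (A_15_P109752) had 1237 in mutant and 1264 in wild-type RNA on array 1, and 569 and 408 on array 2. The annotations of these 3 probes in the files all list 1 Ensembl transcript, and their mean log2 ratios were 0.18 ± 0.30, 0.18 ± 0.08 and 0.22 ± 0.36. On array 2, where all 3 were higher in the mutant, the single-array error model gave them p of 0.0148, 0.121 and 0.00174. On array 1 it gave 0.786, 0.453 and 0.785.

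The fourth bcl2l10 probe (A_15_P118231) was annotated only to an expressed sequence tag, which the annotation of the third probe also lists. It had 321 in mutant and 310 in wild-type RNA on array 1, and 247 and 257 on array 2. Its mean log2 ratio was -0.003 ± 0.08, so the higher values of the other probes on array 2 (0.24 to 0.48) had no counterpart at this probe, at -0.06. Averaged over its 4 probes, bcl2l10 had log2 ratios of 0.03 and 0.26 on the arrays, or 0.15 ± 0.17. The lowest unadjusted p of a pro-survival probe was 0.116, for the second bcl2l10 probe.

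**Figure D2:**
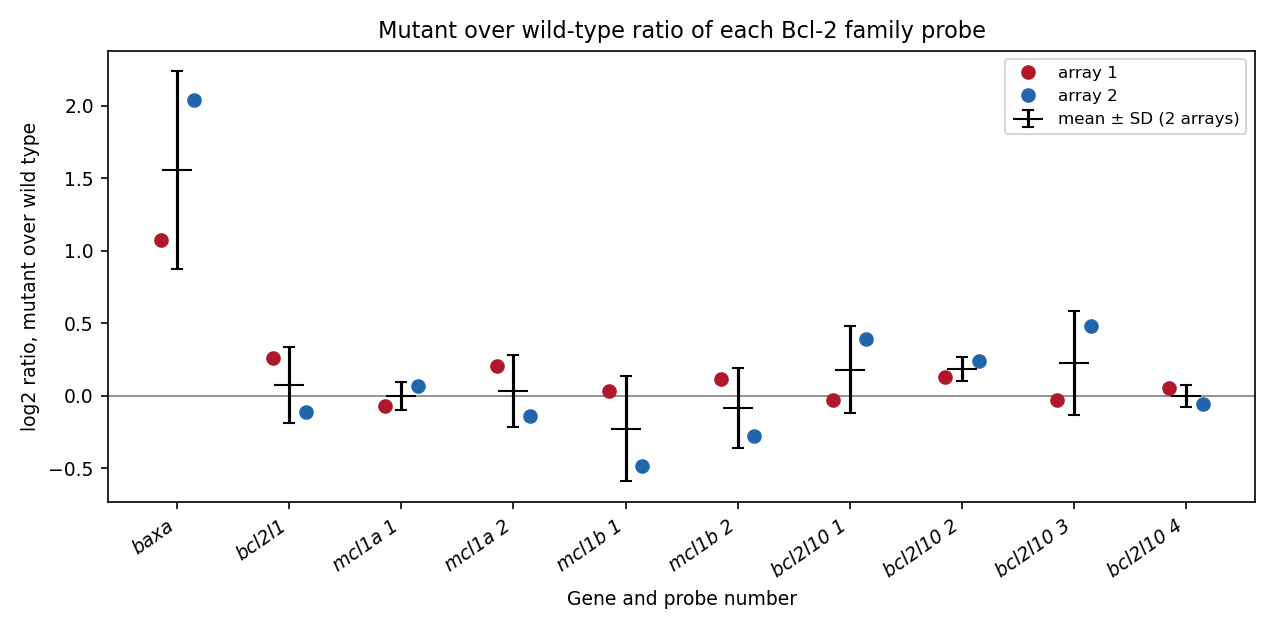
Log2 ratio of mutant over wild type for each of the 10 Bcl-2 family probes, with a point for each array and a bar for the mean ± SD of the 2 arrays. The baxa points sit at 1.07 and 2.04, and the points of the pro-survival probes lie between -0.48 and 0.48 on both sides of 0.

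Set against the pro-survival genes, the baxa ratio was the higher on both arrays in every pairing. That ratio ranked 133rd on array 1 and 11th on array 2 among 19284 probes, so nearly any probe would give the same outcome. The gaps are thus not particular to the pro-survival genes. The difference in log2 ratio, baxa minus the other probe, lay between 0.82 and 1.14 on array 1 and between 1.56 and 2.52 on array 2 over the 9 probes. The gap was wider on array 2 for each of them. With the probes of each gene averaged, the difference was 1.48 ± 0.94 against bcl2l1 and 1.54 ± 0.76 against mcl1a. It was 1.71 ± 1.00 against mcl1b and 1.41 ± 0.52 against bcl2l10 (SD, n = 2 arrays each). The shift of baxa relative to its antagonists was thus between 2.66-fold and 3.27-fold in the mean. These differences share the baxa value and carry no p, since the members were chosen with results of these arrays known. They are differences between ratios, and say nothing of how many molecules of each RNA an embryo holds.

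The few other genes listed with the family that were tested did not share the baxa ratio in these data. Of 24 such genes, 4 had a named probe, and those had mean log2 ratios between -0.01 and 0.09. The Bok genes, relatives of Bax that can also permeabilise mitochondria, had -0.004 ± 0.03 for boka and 0.09 ± 0.09 for bokb. The mitophagy receptor gene bnip3lb had -0.009 ± 0.02, and bnip2 had -0.005 ± 0.27 with opposite directions on the arrays. Limma called 0 of the 4 and gave 0 of them an unadjusted p under 0.05, against 0% and 3.28% of all probes. The BH3-only genes bbc3 (Puma) and pmaip1 (Noxa), and the genes bcl2a, baxb and bida, were not analysed here.

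Probes whose annotation in the files mentions a Bcl-2 relative or partner, but that are no member, were collected by a text search made after the values of the members were seen. There were 22, of which 19 were tested, and their mean log2 ratios ran from -0.10 to 0.23 with a median of 0.006. The 19 include the boka, bnip3lb and bnip2 probes and the partial Mcl1b probe already given above. The 4 tested probes annotated to Bad, a BH3-only protein that binds Bcl-xL, had means between -0.03 and 0.006 and single-array values between -0.26 and 0.27. The probe annotated to BNIP3 had 0.10 ± 0.02 and that annotated to BCL2-like 13 had -0.10 ± 0.04. Both tested probes of the Bax inhibitor-1 transcripts, which encode a protective membrane protein, had a mean of 0.05. None of the 19 had an unadjusted p under 0.05, against 3.28% of all probes.

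The steps that follow Bax at the mitochondrion were represented by 10 tested genes out of 19 listed. Their median log2 ratio was 0.01, or 0.06 and -0.14 on the single arrays. In the mutant 1 gene was higher on both, 2 genes lower on both, and 7 pointed in opposite directions, against 21.4%, 20.0% and 58.6% of all probes. Limma called 0 of them, and 0 had an unadjusted p under 0.05, against 0% and 3.28% of all probes. The adaptor gene apaf1, whose product assembles the apoptosome, had 0.000483 ± 0.16 and the initiator caspase gene casp9 had 0.002 ± 0.06. The executioner caspase gene casp3a had 0.02 ± 0.29 and the caspase inhibitor gene xiap 0.09 ± 0.40, both with opposite directions on the arrays. Of the genes with a shared direction, birc5a (Survivin) had -0.18 ± 0.18 at its brightest probe and a mean of 0.01 at its other. The DNA fragmentation nuclease gene dffb had -0.15 ± 0.08 and endog, for a mitochondrial nuclease, had 0.09 ± 0.09. The endog probe was well above background on both arrays in the mutant but on 1 in wild type, so it passed the filter through the mutant signal. Its ratio was -0.13 with median centring, 0.30 with a normexp offset of 0 and 0.53 with Agilent's processed signals or the deposited value table.

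Partners and regulators of Bcl-2 proteins were represented by 11 tested genes out of 20 listed, with a median log2 ratio of 0.10. In the mutant 4 lay above wild type on both arrays and 0 below, with 7 in opposite directions, against 21.4%, 20.0% and 58.6% of all probes. Limma called 0, with 0 at an unadjusted p under 0.05, against 0% and 3.28% of all probes. Of the 7, tpt1 was represented by a probe saturated in all 4 of its signals, so the direction of that probe could not be read. The means of the 5 tpt1 probes, this one included, ran from -0.35 to -0.05. The outer membrane channel gene vdac2, whose product binds Bak in mammals, had 0.20 ± 0.04 with 0.23 on array 1 and 0.17 on array 2. Its relative vdac3 had 0.17 ± 0.20, the chaperone gene bag6 0.10 ± 0.02 and the inner membrane fusion gene opa1 0.04 ± 0.02. The 5 probes of opa1 had means from -0.06 to 0.13.

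**Figure D3:**
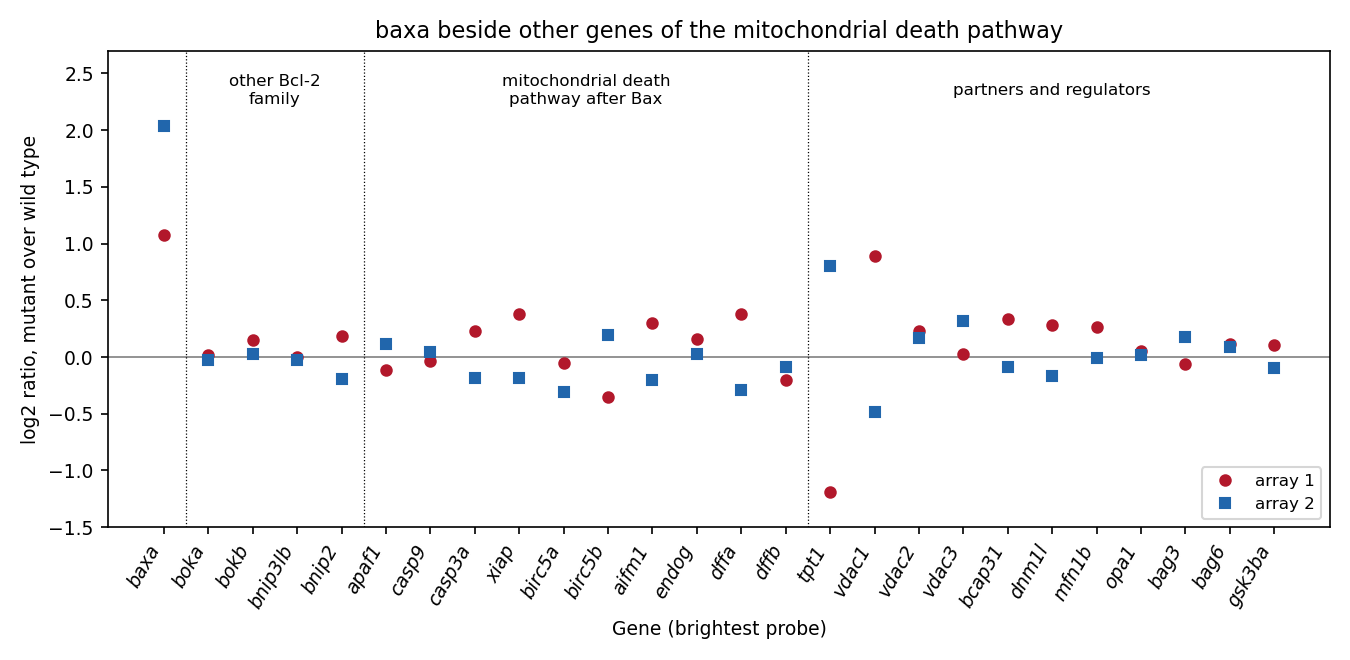
Log2 ratio of mutant over wild type on array 1 (circles) and array 2 (squares) for baxa and, by group, the brightest probe of each tested gene of 3 lists. Both baxa points lie at or above 1.07, while the medians of the lists are -0.005, 0.01 and 0.10 and most genes have points on both sides of 0.

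Some genes linked to p53 had ratios of the size of that of baxa, and others did not. Of 20 listed genes 11 were tested, and 7 of these were at least 2-fold higher in the mutant on both arrays, against 0.124% of all probes. The list was assembled with earlier results of these arrays known, so its count is not independent evidence of its direction. The log2 ratio was 2.28 ± 0.07 for mdm2, which encodes a ubiquitin ligase, and 2.46 ± 0.22 for casp8, an initiator caspase of the death receptor route. The cyclin G1 gene ccng1 had 2.93 on array 2, and 1.72 on array 1, where its mutant signal was saturated and the ratio may be too low. It was 1.66 ± 0.16 for the forkhead factor gene foxo3b and 1.33 ± 0.42 for gadd45aa, a damage response gene. The sestrin gene sesn3 had 2.46 ± 0.79 at its brightest probe and 0.09 at its other. The 4 tested genes under 2-fold were sesn1 with 0.03 ± 0.14, gadd45ba with 0.09 ± 0.44, btg2 with -0.08 ± 0.09 and mdm4, for an Mdm2 relative, with -0.33 ± 0.19. The sesn1 probe was well above background in wild type on 1 array. Limma called 0 of the 11 genes, with 7 higher and 1 lower at an unadjusted p under 0.05, against 2.03% and 1.24% of all probes.

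The probes most like baxa were sought by their distance in the plane of the array ratios, over 2 arrays. The 5 nearest were those of the follistatin gene fsta (1.19 on array 1 and 1.63 on array 2), the transcript TC270856 (1.32 and 1.68), the kinase gene vrk2 (1.63 and 1.89), gtpbp1l (1.37 and 1.44) and the growth factor gene igf2a (1.66 and 1.70). The distance in log2 units was 0.42 for fsta and 0.68 for igf2a. Another probe of fsta had a mean of 0.05. None of these probes combined a ratio near 1 on array 1 with one above 2 on array 2, as baxa did.

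**Figure D4:**
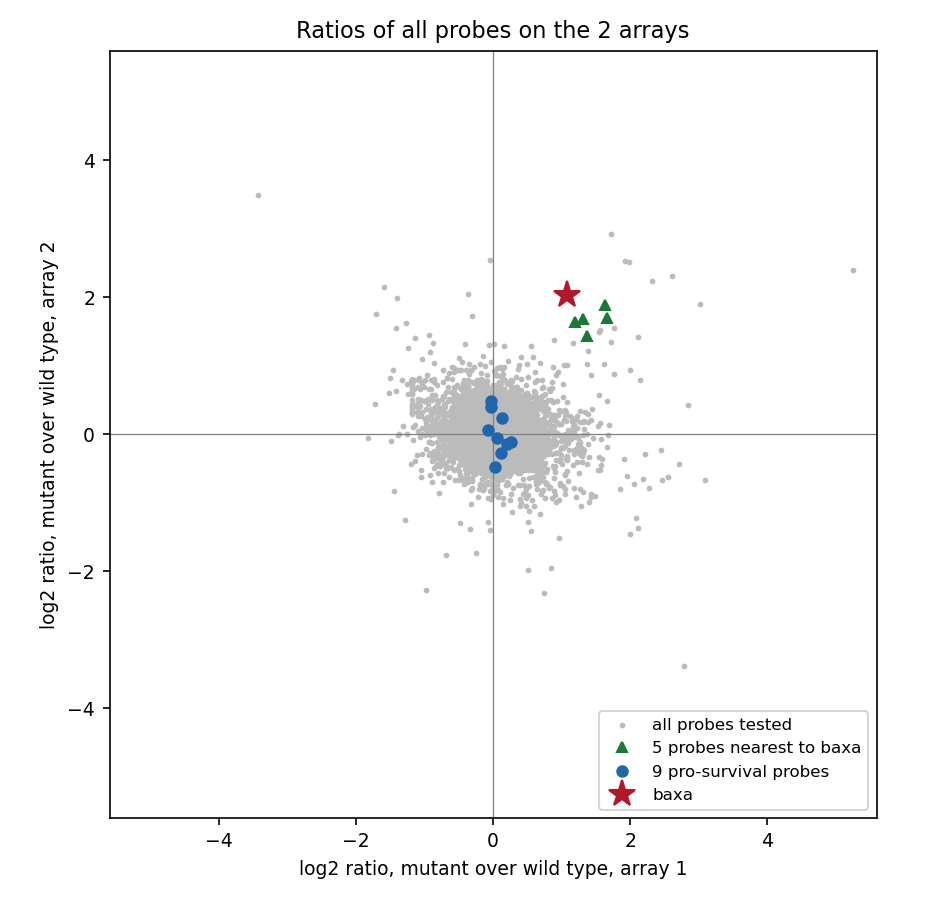
Log2 ratio of mutant over wild type on array 1 against array 2 for the 19284 tested probes (grey), with baxa (star), the 9 pro-survival probes (circles) and the 5 probes nearest to baxa (triangles). The star lies at 1.07 and 2.04, outside the main cloud, and the pro-survival probes lie within it, between -0.07 and 0.26 on array 1 and between -0.48 and 0.48 on array 2.

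Tissue markers also had ratios away from 0. Of the 13 tested marker genes, 10 were above wild type on both arrays, 2 below and 1 in opposite directions. The shares over all probes were 21.4%, 20.0% and 58.6%. The means of the 13 genes lay between -0.61 and 0.69. The 1 in opposite directions was the epidermis gene krt4, whose brightest probe had 3 saturated signals, so the direction of that probe could not be read. Limma called 0 of the 13, with 4 higher and 2 lower at an unadjusted p under 0.05, against 2.03% and 1.24% of all probes. The neural progenitor gene sox2 had -0.61 ± 0.35 and the retinal gene rx2 -0.59 ± 0.46. The other neural marker, elavl3, had 0.08 ± 0.06 at its brightest probe. The hatching enzyme gene he1.2 had 0.69 ± 0.52 and the globin gene hbbe2 0.60 ± 0.02. The other blood markers were nearer to zero, with 0.09 ± 0.11 for the globin gene hbbe1.1 and 0.18 ± 0.22 for gata1a. The muscle genes actc1b and myod1 had 0.45 ± 0.01 and 0.44 ± 0.05, with 0.11 and 0.09 at their other probes. All these means were smaller in size than that of baxa, and the part of tissue make-up in the Bcl-2 family ratios was not tested.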

How the data were processed

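The deposited files were made with Agilent Feature Extraction, per the file headers. They give each spot's raw intensity as a pixel mean, and its background as a local median. Processed intensity was spatially detrended and dye-normalized by LOWESS (smoothing 0.25), per the file headers. The deposited log10 ratio divides red by green processed signal, and the deposited p-value comes from an error model for 1 array, as the file headers record. The series' value table repeats those log10 ratios within 0.00499, also as red over green. In limma 3.58.1 (R 4.3.3), all spots were corrected by normexp (offset 50), and loess (span 0.3) was fitted to gene probes without outlier flags. The sign of array 2 was reversed, giving mutant over wild type throughout. Outlier flags removed 749 gene probes and low signal on both genotypes 1462. A signal is low where neither genotype was well above background on both arrays. Probes were tested with lmFit and eBayes (2-sided, Benjamini-Hochberg over 19284 probes, threshold 0.05, 3.49 total degrees of freedom) and the fit was tested on simulated data. The number of arrays limits the precision. Normalized signals are loess-normalized intensities that include the offset.

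Names followed RefSeq tables of assembly GRCz12tu (7323 gene probes by accession, 598 by symbol, 2352 by synonym, 11222 as in the files). The members, lists and tests were chosen with earlier results of these data known. A list gene is represented by its brightest probe. Named are all member probes, list genes at or beyond 0.5 in log2 ratio on both arrays in 1 direction, up to 5 per list with the largest shared-direction ratio, and the 5 probes nearest baxa. The genes sesn1, gadd45ba, btg2, mdm4, tpt1, apaf1, casp9, casp3a, xiap, boka, bnip3lb, bnip2, rx2, elavl3, hbbe1.1, gata1a and krt4 were added after their values were seen. So were the Bad, BNIP3, BCL2-like 13 and Bax inhibitor-1 probes. Alternatives were the background offset, Agilent's processed signals, median centring, both filters, Aquantile scaling, the value table and leaving out each array. Sequences of probes, promoters and proteins were not used here.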

Additional observations from a re-analysis of the deposited data

How the results depend on the processing

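The baxa ratio kept its direction under all 7 alternatives that use both arrays. Of these, the changes to both filters and Aquantile scaling leave each probe's ratio as it is, so they could not move it. Agilent's processed signals and the value table carry the same ratios. With either array left out, the baxa ratio ran from 1.07 to 2.04. It was called only with median centring (1.60, adjusted p = 1.09e-05), where 38 probes of the array were called in place of 0. The single-array error model called 133. Probes at least 2-fold lower on both arrays numbered 1, and became 3 with a normexp offset of 0, 2 with median centring, and 6 with Agilent's processed signals and 6 with the deposited value table. With either array left out, the 2-fold rule gave 58 to 159 probes higher and 27 to 99 lower in the mutant. Members near 0 changed sign. The first mcl1a probe had 0.0040 with a normexp offset of 0, 0.0264 with Agilent's processed signals, 0.0264 with the value table, 0.063 with median centring and 0.013 as the mean over both mcl1a probes. The fourth bcl2l10 probe had 0.0119 with Agilent's processed signals and 0.0120 with the value table. The gene endog, which is no member, had 0.09 in the main setting and changed sign only with median centring, to -0.13. It kept its sign but had 0.30 with a normexp offset of 0 and 0.53 with Agilent's processed signals or the value table. The cause of these changes was not tested. The gaps of baxa over each pro-survival gene moved by less than their SD under the 7 alternatives that use both arrays. The filter changes and Aquantile scaling could not move these gaps. With either array left out the gaps ran from 0.82 to 2.42. Each ratio already pairs the mutant and wild-type RNA of 1 array, so no further block was fitted.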
